A study of Homo sapiens with 9 samples.

Results

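The matrix genes followed here were THBS1, THBS2, THBS3, TNC, SPARC, FN1, SPP1, TGFBI, FBN1 and ELN, taken by their symbols from the deposited estimated counts, where all 10 occur among 29740 genes. Of these 10, 9 passed the expression filter of edgeR, which kept 14740 genes, and SPP1 did not. The study asked how trimethylamine N-oxide (TMAO), a metabolite derived from the gut microbiome, changes gene expression in endothelial cells over time. It sequenced RNA from HMEC-1, an established immortalised line of human dermal microvascular endothelial cells, in 3 libraries for each of 3 groups. The TMAO 24H and TMAO 48H groups received 50 µM TMAO for 24 or 48 hours, the CTRL group received none, and by the study's methods the cells were kept in medium with little serum during treatment. Controls from either time-point form a single group, so treatment and time in culture cannot be told apart in a comparison with control. The same holds between the treated groups, which differ in hours in culture as well. All libraries came from a single cell line. The study's statistical methods speak of independent experiments in general without saying whether the sequenced libraries were separate cultures, so p-values measure only the spread between libraries, which may be technical.

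Matricellular proteins are secreted proteins that sit in the extracellular matrix (ECM) without being its main scaffold, and that act on cells through integrins and other receptors. Fibronectin (FN1) is laid down as fibrils to which cells attach, and fibrillin-1 (FBN1) forms the microfibrils on which elastin (ELN) is deposited to make elastic fibres. In endothelium these proteins are known for their parts in adhesion, vessel sprouting and the storage of TGF-β.

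Total counts ranged from 29160868 to 30069548 in controls, from 32179428 to 36927373 at 24H and from 25205756 to 32563494 at 48H. The library TMAO 24H replicate 1 stood apart, with 31.5% of its counts on the 6 genes of ribosomal RNA, where the other 8 had 1.64% to 7.46%. TMAO 48H replicate 3 also stood apart, since its summed level of 6 epithelial markers was 11.9 CPM (counts scaled to a common library total) against 66.6 to 109 in the other 8 libraries. All 15 endothelial markers were among the genes tested, and their summed level was 3080 to 3410 CPM in controls, 3060 to 3250 CPM at 24H and 2710 to 2950 CPM at 48H. Of these, PECAM1, CDH5, KDR, TIE1, ENG, ERG, EGFL7, ROBO4 and PLVAP were lower at 48H than in controls (adjusted p under 0.05 by edgeR). Among all genes tested, 5.29% were lower in this way. VWF, FLT1, TEK, CLDN5, ESAM and EMCN did not pass. With bulk RNA, fewer cells of a type and less RNA per cell cannot be told apart.

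At 48H, RNA of TGFBI, FN1, THBS1 and FBN1 was lower than in controls, and none of the 9 tested genes passed the test at 24H. The 250 bases before the start sites of these 4 genes are shown because their RNA fell together at 48H. The sequences are the RefSeq promoter windows of GRCh38.p14, read 5′ to 3′ on the strand of the gene, and each window ends just before the start site given there. Capitals mark the GC box (GGGCGG on either strand, overlapping matches included) and, in FN1, the cAMP response element (CRE, TGACGTCA). TGFBI lies on the forward strand (window chr5:136028738-136028987), FN1 on the reverse strand (chr2:215436069-215436318), THBS1 on the forward strand (chr15:39580829-39581078) and FBN1 on the reverse strand (chr15:48644971-48645220).
TGFBI: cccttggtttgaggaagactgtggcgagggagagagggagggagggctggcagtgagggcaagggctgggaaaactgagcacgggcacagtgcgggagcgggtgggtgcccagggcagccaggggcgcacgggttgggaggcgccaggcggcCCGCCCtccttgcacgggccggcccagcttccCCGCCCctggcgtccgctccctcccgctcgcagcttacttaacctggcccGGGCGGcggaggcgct
FN1: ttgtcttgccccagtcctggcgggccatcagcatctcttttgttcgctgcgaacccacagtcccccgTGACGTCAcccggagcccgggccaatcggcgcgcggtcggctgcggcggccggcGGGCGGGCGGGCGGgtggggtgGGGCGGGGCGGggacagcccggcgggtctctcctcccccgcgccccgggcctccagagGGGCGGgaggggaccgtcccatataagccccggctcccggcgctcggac
THBS1: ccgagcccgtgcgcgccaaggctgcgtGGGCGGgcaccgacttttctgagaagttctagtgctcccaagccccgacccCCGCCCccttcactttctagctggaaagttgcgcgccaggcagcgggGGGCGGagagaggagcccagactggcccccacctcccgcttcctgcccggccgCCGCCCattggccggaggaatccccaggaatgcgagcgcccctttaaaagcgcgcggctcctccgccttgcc
FBN1: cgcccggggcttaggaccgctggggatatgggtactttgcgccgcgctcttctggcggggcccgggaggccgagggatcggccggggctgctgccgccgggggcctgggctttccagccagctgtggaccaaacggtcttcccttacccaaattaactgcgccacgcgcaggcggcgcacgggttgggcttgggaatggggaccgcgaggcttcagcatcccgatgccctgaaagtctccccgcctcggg

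The letters of the GC box occurred 6 times in the FN1 window, 4 times in that of THBS1, 3 times in that of TGFBI and 0 times in that of FBN1. Among all 35116 promoter windows of the same length, 42.6% held at least 1 GC box and 1.65% held a CRE, which in these genes was found in FN1 alone, from base -183 to base -176 before the start site. The exact letters TATAAA of the TATA box (in 10.7% of all windows) were found in THBS2 alone, from base -29 to base -24. Other spellings of the TATA box, such as the tataag in the FN1 window, were not searched. THBS3, which has 2 start sites in the table, had 1 GC box at each, and TNC had 1, while the windows of SPARC, SPP1 and THBS2 had 0. The AP-1 site (TGACTCA, in 4.20% of windows) and the CArG box (in 1.16%) were found in 0 of the 9 genes with a window. All 5 motifs were searched on both strands, a match describes the letters only, and the start sites of FBN1 and of the second THBS3 window in this table differ from those of the annotated transcript set used for lengths.

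**Figure D1:**
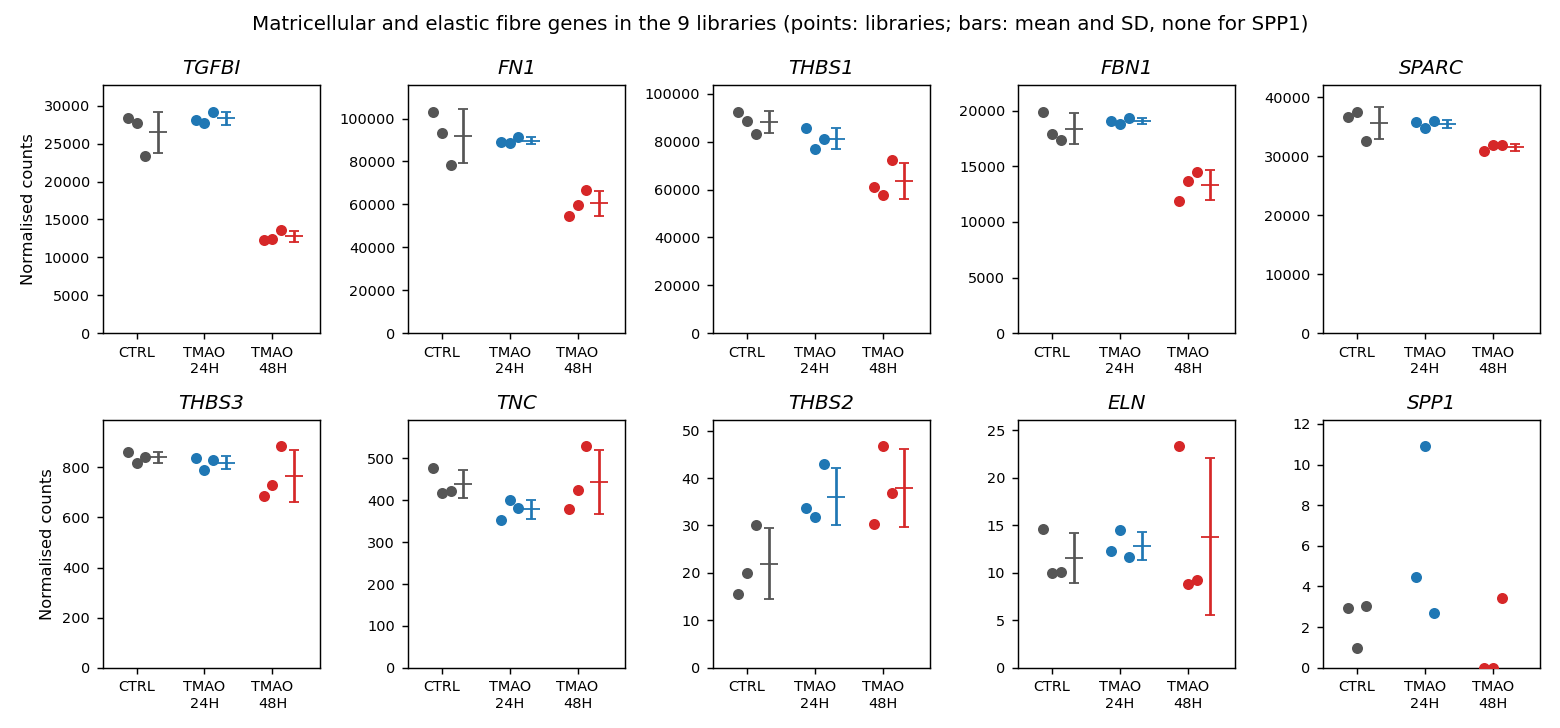
Normalised counts (y axis, from 0) of the 10 genes in CTRL, TMAO 24H and TMAO 48H (x axis), with points for libraries and bars for mean and SD (n = 3; no bar for SPP1). For TGFBI, FN1, THBS1, FBN1 and SPARC all 3 libraries at 48H lie below all 3 controls.

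TGFBI, an adhesive ECM protein named for its induction by TGF-β, showed the largest change of these genes at 48H. Its normalised counts (counts scaled to a common effective library size) were 28422, 27756 and 23362 in controls, 28106, 27687 and 29263 at 24H, and 12269, 12438 and 13563 at 48H. The libraries at 48H lay far below the other 6, which overlapped each other. The mean was 26514 ± 2750 (SD, n = 3) in controls and 12757 ± 704 (SD, n = 3) at 48H, so that it fell by 51.9%, with a log2 fold change of -1.06 (standard error (SE) 0.0694, 95% interval -1.205 to -0.906, adjusted p = 3.48e-06 in edgeR's quasi-likelihood test with Benjamini-Hochberg adjustment over all genes tested). By p-value TGFBI ranked 4 among the 14740 genes tested in this comparison. Against 24H the log2 fold change at 48H was -1.15 (SE 0.0695, adjusted p = 1.76e-06 by edgeR), and at 24H against control it was 0.10 (95% interval -0.051 to 0.245, adjusted p = 0.834). The fall at 48H against control passed in 6 of 6 fits without 1 library, with log2 fold changes from -1.14 to -1.0.

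FN1, which encodes fibronectin, fell less. It had 103304, 93450 and 78320 normalised counts in controls, 88992, 88485 and 91625 at 24H, and 54745, 59935 and 66606 at 48H. Controls were the most spread group, with a coefficient of variation of 13.7% against 1.88% at 24H, and all libraries at 48H were below the lowest control. Means were 91692 ± 12600 (SD, n = 3) in controls and 60429 ± 5950 (SD, n = 3) at 48H, a log2 fold change of -0.60 (SE 0.0981, 95% interval -0.813 to -0.39, adjusted p = 0.00223 by edgeR). Against 24H it was -0.57 (SE 0.0981, adjusted p = 0.00285). At 24H against control the interval was -0.243 to 0.179 (adjusted p = 0.978).

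THBS1 encodes thrombospondin-1, a matricellular inhibitor of vessel growth that binds CD36 and CD47. Its normalised counts were 92604, 88453 and 83411 in controls, 85852, 77057 and 80999 at 24H, and 60887, 57561 and 72179 at 48H. All libraries at 48H lay below all of the others, with replicate 3 the highest of the 3, while the groups at 24H and control overlapped. The log2 fold change at 48H was -0.47 against control (SE 0.0866, 95% interval -0.659 to -0.286, adjusted p = 0.0045 by edgeR), and it was -0.57 without TMAO 48H replicate 3. At 24H against control it was -0.12 (95% interval -0.303 to 0.07, adjusted p = 0.848). The fall from 24H to 48H (log2 fold change -0.36, SE 0.0865, adjusted p = 0.0238 by edgeR) did not pass in 4 of 6 fits without 1 library. These left out TMAO 24H replicate 1 (adjusted p = 0.0721) or 3 (adjusted p = 0.0808) and TMAO 48H replicate 1 (adjusted p = 0.0527) or 2 (adjusted p = 0.121). In the annotation of GENCODE release 29, 4.89% of the exonic bases of THBS1 overlap FSIP1 on the opposite strand, and whether counting used strand is not given in the sources used here.

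The other thrombospondins measured, THBS2 and THBS3, did not pass the test in any comparison. THBS2, which like THBS1 is known as an inhibitor of vessel growth, was near the limit of detection, with 16 to 53 estimated counts per library. It had 15.6, 19.9 and 30.2 normalised counts in controls, 33.6, 31.7 and 43.0 at 24H, and 30.3, 46.7 and 36.8 at 48H, so all 6 treated libraries were above all controls, at 48H by a very small margin. The log2 fold changes were 0.72 at 24H (SE 0.283, 95% interval 0.113 to 1.333, unadjusted p = 0.0237, adjusted p = 0.631 by edgeR) and 0.80 at 48H (SE 0.283, 95% interval 0.189 to 1.412, adjusted p = 0.0906). Control replicate 3 decided the second call, since without it the log2 fold change at 48H was 1.09 (adjusted p = 0.0409).

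THBS3, a pentameric thrombospondin, had 862, 817 and 841 normalised counts in controls, 838, 791 and 828 at 24H, and 687, 729 and 884 at 48H. At 48H replicate 3 was above every control and the other two were below every control. The log2 fold change at 48H was -0.13 (95% interval -0.304 to 0.04, adjusted p = 0.321 by edgeR), and without TMAO 48H replicate 3 it was -0.25 (adjusted p = 0.0255). Of its annotated exonic bases, 22.2% overlap AC234582.1 and 3.16% overlap MTX1, both on the opposite strand, so its counts are uncertain if strand was not used.

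TNC encodes tenascin-C, a large matricellular protein of healing and remodelling tissue. It had 477, 417 and 422 normalised counts in controls, 354, 400 and 382 at 24H, and 379, 425 and 529 at 48H. All libraries at 24H were below all controls, and those at 48H spread across both sides of them. The log2 fold change at 24H was -0.21 (SE 0.110, 95% interval -0.449 to 0.025, adjusted p = 0.732 by edgeR) and at 48H against 24H it was 0.23 (95% interval -0.006 to 0.468, adjusted p = 0.239). At 48H against control it was 0.02 (95% interval -0.217 to 0.256), and -0.12 without TMAO 48H replicate 3.

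SPARC, a collagen-binding matricellular protein, was abundant and moved little. Its normalised counts were 36608, 37541 and 32477 in controls, 35777, 34685 and 35982 at 24H, and 30783, 31808 and 31861 at 48H. The libraries at 48H were below all others, but control replicate 3 came close to them. The log2 fold change at 48H was -0.17 against control (SE 0.0578, 95% interval -0.3 to -0.05, adjusted p = 0.071 by edgeR) and -0.17 against 24H (adjusted p = 0.0929). Without control replicate 3 the first of these was -0.24 (adjusted p = 0.00577), and over 12 other settings its adjusted p ran from 0.00552 with DESeq2 to 1, passing in 2 of them. At 24H the interval was -0.127 to 0.122 (adjusted p = 0.995).

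SPP1, which encodes osteopontin, an integrin-binding glycoprotein, had 3, 1 and 3 estimated counts in controls, 4, 12 and 3 at 24H, and 0, 0 and 3 at 48H. SPP1 did not pass the expression filter, so no fold change was computed and no difference was tested. A count of 0 in a library allows a level of up to 3 counts, for counting error only.

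Of the elastic fibre genes proper, FBN1 fell at 48H and ELN was barely detected. FBN1 had 19950, 17948 and 17357 normalised counts in controls, 19104, 18798 and 19357 at 24H, and 11875, 13718 and 14497 at 48H. The libraries at 48H were below all the others, and those at 24H lay within the range of the controls. Its log2 fold change at 48H was -0.46 against control (SE 0.069, 95% interval -0.612 to -0.314, adjusted p = 0.00122 by edgeR) and -0.51 against 24H (SE 0.069, adjusted p = 0.000403). At 24H against control the interval was -0.097 to 0.2 (adjusted p = 0.943). ELN had 14.6, 9.96 and 10.1 normalised counts in controls, 12.3, 14.5 and 11.6 at 24H, and 23.3, 8.81 and 9.21 at 48H. A single library, TMAO 48H replicate 1, was high, and without it the log2 fold change at 48H went from 0.22 (95% interval -0.719 to 1.16, adjusted p = 0.799 by edgeR) to -0.36 (adjusted p = 0.672).

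**Figure D2:**
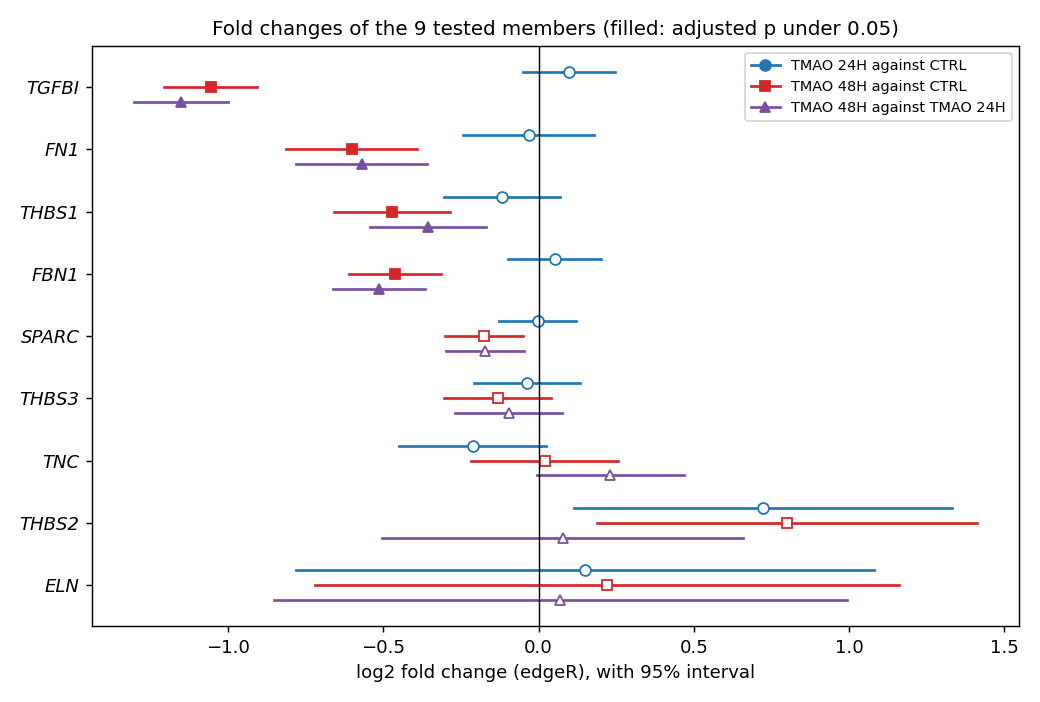
Log2 fold changes from edgeR (x axis) of the 9 tested genes (y axis) in the 3 comparisons, with lines for 95% intervals and filled symbols for an adjusted p under 0.05. The falls of TGFBI, FN1, THBS1 and FBN1 at 48H stand to the left of 0, and the intervals of THBS2 and ELN are wide.

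In counts, 0 of the 9 genes passed at 24H by edgeR in either direction, where 0.0950% of all genes tested did, and 1 (THBS2) had an unadjusted p under 0.05, as had 7.24% of all genes. At 24H THBS2 alone had all libraries above all controls, as had 6.73% of all genes, and TNC alone had all below, as had 7.52%. At 48H, 4 of 9 were lower, against 5.29% of all genes, and 0 were higher, against 5.14%. Of these 4, TGFBI and FN1 changed by at least 1.4-fold, where 0.916% of all genes were lower by that much. All libraries at 48H were below all controls for 5 genes (TGFBI, FN1, THBS1, FBN1 and SPARC), a pattern shown by 13.0% of all genes, and above for THBS2, shown by 14.7%. At 48H against 24H, 4 of 9 were lower and 0 higher (3.77% of all genes in each direction), 3 of them, TGFBI, FN1 and FBN1, by at least 1.4-fold (0.848% of all genes), and for 5 genes, those named for the fall from control, the groups did not overlap (12.9%). The 2 comparisons that involve 48H share their libraries at 48H, and the 2 with control share the controls. The median log2 fold change of the 9 genes was -0.0025 at 24H and -0.17 at 48H, and over all genes tested it was -0.0004 and 0.004.

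The 4 falls at 48H against control also passed without TMAO 48H replicate 3, the library with low epithelial markers. There the log2 fold changes were -1.10 for TGFBI (adjusted p = 1.22e-05 by edgeR), -0.68 for FN1 (adjusted p = 0.00214), -0.57 for THBS1 (adjusted p = 0.00124) and -0.52 for FBN1 (adjusted p = 0.000847). When libraries were scaled by total counts alone, TGFBI was the only one of the 4 that passed at 48H, with adjusted p-values of 0.145 for FN1, 0.502 for THBS1 and 0.32 for FBN1, the highest over 12 settings, whose lowest were 8.92e-06, 7.73e-10 and 8.16e-11 in the same order. With total counts alone the log2 fold change was -0.59 for FN1 and -0.46 for THBS1, where the main fit had -0.60 and -0.47. That of FBN1 ran from -0.52 to -0.45 over the 12 settings. The same libraries moved several of these genes together. Control replicate 3 was the lowest control for TGFBI, FN1, THBS1, FBN1 and SPARC, and TMAO 48H replicate 3 was the highest at 48H for the same 5 genes and for THBS3 and TNC.

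The 10 genes held a visible part of the library. Their share of the counts outside ribosomal RNA was 0.992%, 0.933% and 0.843% in controls, 0.915%, 0.880% and 0.913% at 24H, and 0.615%, 0.630% and 0.711% at 48H. The share at 48H was below that of every other library.

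Levels were compared between genes as CPM per kilobase of the longest annotated transcript, although the isoform expressed is not known. In controls THBS1 led at 373 (353 to 392), followed by FN1 at 339 (289 to 381), SPARC at 316 (289 to 333) and TGFBI at 311 (274 to 333), and the ranges of neighbours in this order overlapped. FBN1 followed at 51.5 (48.5 to 55.8), THBS3 at 8.63 (8.40 to 8.85) and TNC at 1.89 (1.79 to 2.05), each separated from the next. THBS2 at 0.124, ELN at 0.0957 and SPP1 at 0.0481 came last, with counts too low to order them firmly. At 48H the order of the leading genes was SPARC at 280 (273 to 283), THBS1 at 269 (243 to 305), FN1 at 223 (202 to 246) and TGFBI at 150 (144 to 159). TGFBI had thus moved from a range shared with SPARC and FN1 to one below both. The ranges of THBS1 and SPARC were apart in controls and overlapped at 48H.

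**Figure D3:**
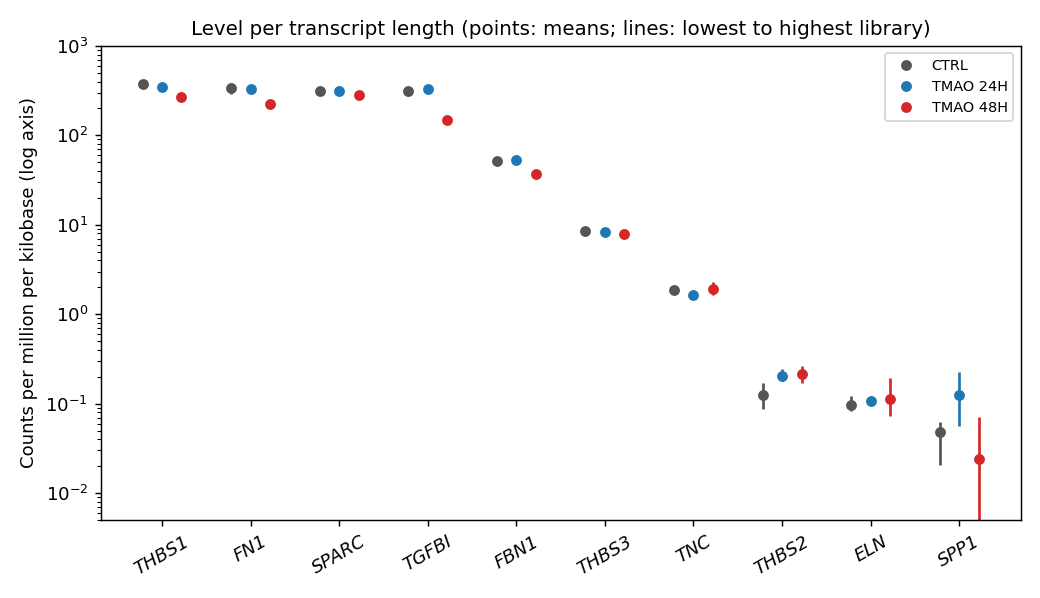
Level in CPM per kilobase of transcript (y axis, log scale) of the 10 genes (x axis, ordered by level in controls) in the 3 groups, with points for means and lines from the lowest to the highest library. The genes span levels from 373 for THBS1 to 0.0481 for SPP1 in controls, and the line of SPP1 at 48H runs off the axis because 2 of its libraries were at 0.

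Ratios between these genes within a library do not depend on how libraries are scaled. Per 100 counts of SPARC, TGFBI had 77.6, 73.9 and 71.9 counts in controls, 78.6, 79.8 and 81.3 at 24H, and 39.9, 39.1 and 42.6 at 48H. Per 100 counts of FN1 it had 27.5, 29.7 and 29.8 in controls, 31.6, 31.3 and 31.9 at 24H, and 22.4, 20.8 and 20.4 at 48H. TGFBI was thus lower relative to both in every library at 48H than in any other library. Relative to FBN1 it had 142, 155 and 135 counts per 100 in controls and 103, 90.7 and 93.6 at 48H, and relative to THBS1 30.7, 31.4 and 28.0 in controls and 20.2, 21.6 and 18.8 at 48H. These ratios are a description and were not tested.

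Other matricellular genes were listed to set the 10 in their family, and 11 of the 22 found in the counts were tested. At 24H, 0 of 11 rose and 2 fell (median log2 fold change -0.06), where 14 of all 14740 genes passed. At 48H, 1 of 11 rose and 3 fell, against 5.14% and 5.29% of all genes (median -0.01). CTGF and CYR61, CCN proteins that bind integrins and are induced early by growth factors and stretch, both fell at 24H. Without TMAO 24H replicate 2, 0 of all genes passed at 24H, so neither of these 2 falls passed there. With the replicate block, 1 of all genes passed at 24H, so at most 1 of the 2 did. CTGF had 42749 ± 1520 (SD, n = 3) normalised counts in controls and 29244 ± 1460 (SD, n = 3) after 24H (log2 fold change -0.55, SE 0.0579, adjusted p = 0.003 by edgeR) and stood at 48504 ± 2120 (SD, n = 3) at 48H (adjusted p = 0.0618 against control). CYR61 had 33639 ± 935 (SD, n = 3) in controls and 23065 ± 1240 (SD, n = 3) after 24H (a log2 fold change of -0.54, adjusted p = 0.003) and 45791 ± 3230 (SD, n = 3) after 48H, a rise over control (log2 fold change 0.44, adjusted p = 0.000751). At 48H against 24H, 3 of the 11 were higher, among them CYR61 (log2 fold change 0.99) and CTGF (0.73), and 3 were lower (3.77% of all genes in each direction), while 0 of the 9 tested genes of the main set were higher. SPOCK1, a testican proteoglycan of the SPARC family, had 1916 ± 145 (SD, n = 3) in controls and, lower, 1259 ± 97.8 (SD, n = 3) after 48H (log2 fold change -0.60, adjusted p = 0.00011 by edgeR). TNXB, which encodes tenascin-X, fell as well (log2 fold change -0.39, adjusted p = 0.0116). COMP, the fifth thrombospondin, had 11.9 ± 6.58 (SD, n = 3) normalised counts in controls and 1.85 ± 2.28 (SD, n = 3) after 48H (adjusted p = 0.0442), too few for a reliable fold.

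Of 36 elastic fibre and microfibril partners in the counts, 33 were tested, and 0 passed at 24H by edgeR in either direction, while at an unadjusted p under 0.05 the counts were 6 lower and 0 higher of 33, where 4.47% of all genes were lower and 2.77% higher. After 48H, 4 of 33 rose and 13 fell, against 5.14% and 5.29% of all genes (median log2 fold change -0.08), where FBN1 itself fell. Of the latent TGF-β binding proteins, which attach to fibrillin microfibrils, LTBP1, LTBP2 and LTBP3 fell and LTBP4 did not pass (log2 fold change -0.04, adjusted p = 0.685 by edgeR). LTBP1 had 3949 ± 295 (SD, n = 3) normalised counts in controls and 2529 ± 92.1 (SD, n = 3) after 48H (log2 fold change -0.64, adjusted p = 1.98e-05 by edgeR), LTBP2 had a log2 fold change of -0.63 (adjusted p = 0.000145) and LTBP3 of -0.44 (adjusted p = 0.000225). VCAN, the proteoglycan versican, which binds fibrillin, had 776 ± 93.0 (SD, n = 3) in controls and 410 ± 36.5 (SD, n = 3) after 48H (log2 fold change -0.92, adjusted p = 7.47e-05). FBLN5, a fibulin needed for elastic fibre assembly, had 269 ± 18.5 (SD, n = 3) and 148 ± 14.6 (SD, n = 3) in these groups (log2 fold change -0.87, adjusted p = 0.000352). ADAMTS10, a secreted metalloproteinase that binds fibrillin-1, had a log2 fold change of -0.60 (adjusted p = 0.00058). The 4 that rose were other fibulins, FBLN7 (log2 fold change 0.55), FBLN1 (0.40) and FBLN2 (0.28), and the multimerin MMRN1 (0.39), named here after their values were seen.

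Of 28 genes listed as receptors of these proteins and found in the counts, 26 were tested, and 0 passed at 24H by edgeR. At an unadjusted p under 0.05 there was 1 of 26 in each direction, against 2.77% of all genes higher and 4.47% lower. After 48H, 1 of 26 rose and 7 fell, against 5.14% and 5.29% of all genes (median log2 fold change -0.14), and 0 changed by 1.4-fold or more, as did 265 of all 14740 genes. The integrin subunits ITGB5, which binds vitronectin with the αv chain, and ITGA4 and ITGA5, whose receptors bind fibronectin, had log2 fold changes of -0.39 (adjusted p = 9.48e-05 by edgeR), -0.35 (adjusted p = 0.00058) and -0.31 (adjusted p = 0.0079). ITGB8, which with the αv chain activates latent TGF-β, had 437 ± 5.63 (SD, n = 3) normalised counts in controls and 337 ± 6.01 (SD, n = 3) after 48H (log2 fold change -0.38, adjusted p = 0.008). PTPRB and ROBO4 had log2 fold changes of -0.44 (adjusted p = 0.00167 by edgeR) and -0.33 (adjusted p = 0.00194). Both are endothelial receptors that are not established as receptors of these proteins, although the list holds them and the 7 falls include them. CD47, a receptor of THBS1, was the gene that rose (log2 fold change 0.19, adjusted p = 0.0117), named here after its value was seen.

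**Figure D4:**
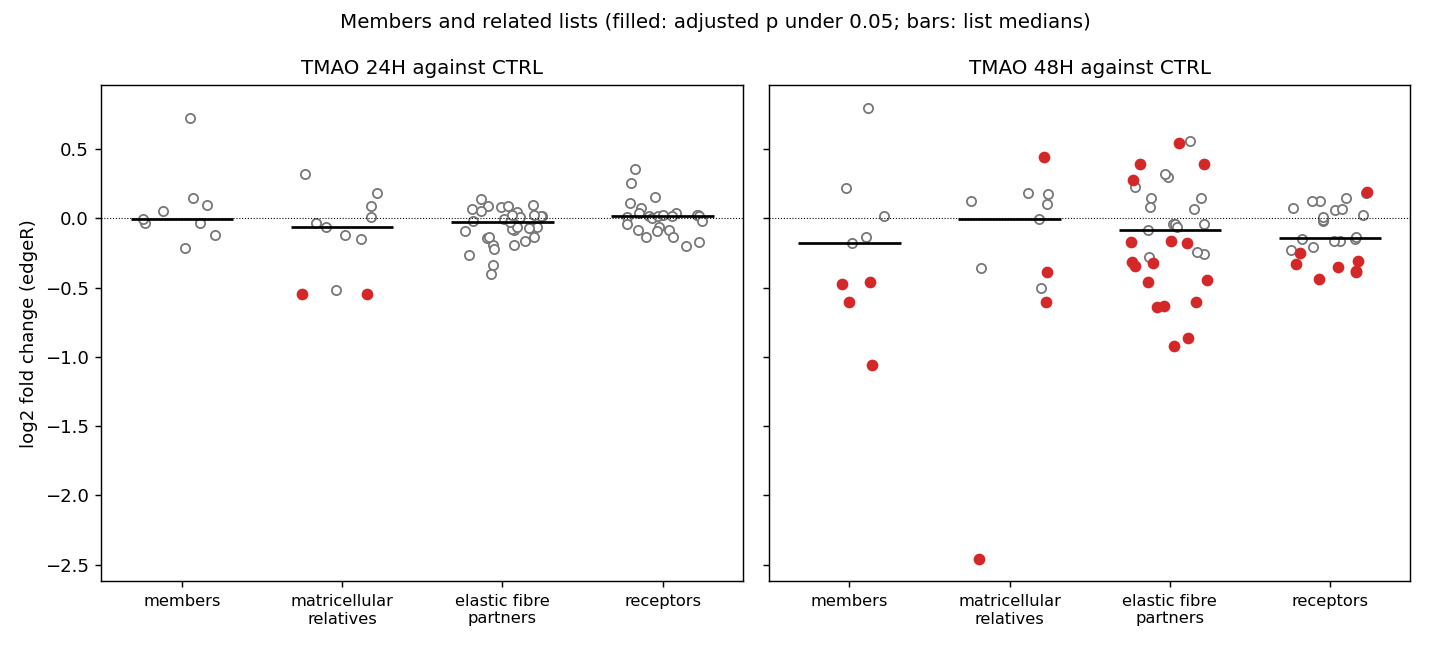
Log2 fold changes from edgeR (y axis) of the tested genes of the main set and of 3 related lists (x axis) at 24H and at 48H against control, with filled points for an adjusted p under 0.05 and bars for medians. CTGF and CYR61 are the 2 filled points at 24H, and at 48H filled points lie on both sides of 0 among the partners and mostly below it among the receptors.

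The fibroblast marker sum was lower at 48H. It consisted largely of the collagen genes COL1A1 (mean 582 CPM over all libraries) and COL1A2 (242 CPM), which are matrix genes themselves. The summed level of 8 fibroblast markers, of which 5 were tested, was 918 to 1070 CPM in controls, 926 to 1000 CPM at 24H and 578 to 631 CPM at 48H. Within that list COL1A1 (log2 fold change -0.67, adjusted p = 2.15e-05 by edgeR), COL1A2 (-1.08, adjusted p = 5.95e-06) and FAP (-0.72, adjusted p = 0.00556) were lower at 48H, COL3A1 had -0.17 (adjusted p = 0.142), and the defining markers LUM, DCN and PDGFRA had 0 to 1, 0 to 2 and 3 to 13 estimated counts per library. The smooth muscle and pericyte sum (7 of 8 tested) was 174 to 193 CPM in controls, 163 to 173 CPM at 24H and 177 to 198 CPM at 48H. Within that list ACTA2 was higher at 48H (log2 fold change 0.74, adjusted p = 0.00194 by edgeR), and the other tested genes did not pass there. The epithelial sum (6 of 6 tested) was 71.7 to 109 CPM in controls, 66.6 to 82.9 CPM at 24H and 11.9 to 107 CPM at 48H. The leukocyte sum (1 of 6 tested) was 18.3 to 22.3 CPM over all libraries, with CD3E at 0 in all of them. Any part of such cell types in the falls of TGFBI, FN1, THBS1 and FBN1 was not tested.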

How the data were processed

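RNA of HMEC-1 was sequenced in 9 libraries, 3 per group, grouped by their labels. The authors ran the nf-core RNAseq pipeline (version 3.6), the submitters' processing notes name Trim Galore, and the authors deposited estimated counts (expected counts, without normalisation) for 29740 genes. The quantifier, genome build and annotation are not given in the sources used here. No column was left without a sample. Counts were rounded to whole numbers and analysed in R 4.3.3 with edgeR 4.0.16 (filterByExpr, TMM, quasi-likelihood fit of all 9 libraries with legacy = FALSE, Benjamini-Hochberg adjustment over the 14740 genes kept). A gene passed at an adjusted p under 0.05, and changes of at least 1.4-fold were also counted. SEs were derived from the F statistic. An exact permutation test of 3 against 3 libraries cannot go below p = 0.1. The biological coefficient of variation was 0.0744. Depth ranged from 25205756 to 36927373 counts, and intervals cover the spread between libraries.

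The genes and lists were chosen with earlier results of these data known. In each related list, up to 6 genes with the smallest p among those that passed against control are named. Lengths and overlaps came from GENCODE release 29, and promoter windows of 250 bases, found for 9 of the 10 genes, from RefSeq. The alternatives were DESeq2 1.42.0, other scaling factors (RLE, upper quartile, total counts alone), other filters on low counts (none, or at least 10 counts in every library), a fit of only the groups compared, the older quasi-likelihood fit, a replicate block, removal of ribosomal RNA genes and leaving out each library. Corrections for GC content and transcript length, available for 89.8% of the genes tested, were chosen after seeing the data. The procedure was tested on simulated data. RT-qPCR and metabolite measurements were not analysed here.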

Additional observations from a re-analysis of the deposited data

Results flagged for a closer look

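The difference between 24H and 48H, tested directly by edgeR between the treated groups, passed for 4 of the 9 tested genes. These groups also differ in time in culture, and no control library is labelled with a time. The part of TMAO in the difference was therefore not tested. The log2 difference was -1.15 for TGFBI, -0.57 for FN1, -0.51 for FBN1 and -0.36 for THBS1, and all 3 libraries at 48H were below all 3 at 24H for each of them. The value of THBS1 did not pass in 4 of 6 fits without 1 library.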

How the results depend on the processing

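At 24H, none of the 9 tested genes passed under any alternative run. At 48H against control the 4 falls passed under each alternative except total counts alone, where 1 gene (TGFBI) passed, and 2 (TGFBI and FN1) passed at 1.4-fold. Leaving out 1 library gave 4 to 6 genes. Against 24H, 1 gene passed with total counts alone, 3 with the replicate block (THBS1 was lost, adjusted p = 0.0582) and 3 to 4 without 1 library. Total counts alone shifted the median of all genes by -0.14 at 24H against control and by 0.16 at 48H against 24H.

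Over all genes, 14 passed at 24H, but 7 at 1.4-fold, 55 with DESeq2, 89 with total counts alone (54 higher and 35 lower, against 0 and 14), 22 with only the groups compared, 1 with the replicate block and 0 to 12 without 1 library. At 48H against control, 1537 passed, but 265 at 1.4-fold, 111 with total counts alone, 981 with only the groups compared, 948 with the replicate block, 1011 with GC correction and 700 to 1595 without 1 library. At 48H against 24H, 1110 passed, but 252 at 1.4-fold, 292 with total counts alone (199 higher and 93 lower, against 555 and 555), 731 with the replicate block and 558 to 1052 without 1 library.

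Signs turned only in comparisons where the gene had not passed. At 24H, SPARC had log2 fold changes of 3e-04 with DESeq2, 2e-04 with RLE factors, 0.0018 with length correction and -0.0606 to 0.0385 without 1 library, FN1 had -0.1304 to 0.0625 without 1 library, and TGFBI and FBN1 had -0.0488 and -0.0942 with total counts alone. At 48H against control, TNC had -0.0239 with length correction and -0.12 to 0.12 without 1 library, and ELN had -0.36 to 0.48 without 1 library. At 48H against 24H, THBS3 had 0.0709 with total counts alone, THBS2 had -0.11 to 0.23 without 1 library, and ELN had -9e-04 with the replicate block and -0.51 to 0.33 without 1 library. The causes were not tested. Libraries with the same replicate number did not deviate together (9 pairs, correlations -0.21 to 0.07), so the numbers were not read as pairs. In the 18 pairs with different numbers the correlations were -0.13 to 0.2. Low counts limit THBS2, ELN and SPP1.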

Other observations

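The primer pair that the study lists under the name TGFBI was matched to the transcripts of GENCODE release 29. Both primers matched exactly in 1 of 4 transcripts of TGFB1, which encodes TGF-β1, with a product of 177 bases, and in 0 of 15 transcripts of TGFBI. The study's methods and results name the RT-qPCR target as TGF-β1, and the name TGFBI stands only in its primer list. RT-qPCR was not analysed here.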
